A study of Mus musculus with 6 samples.

Results

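The comparison described here set mouse embryonic stem cells given vitamin C against cells of the same line given only its vehicle, water. Its 2 libraries, of the 6 in the series, were taken by treatment label, and all microRNA arms counted in them were described. The vitamin C library came from J1 cells, a mouse embryonic stem cell line, treated with 50 µg/ml vitamin C for 24 h. The ddH2O library came from J1 cells given 1 µL of double-distilled water for the same 24 h. The other 4 libraries were retinoic acid at 1 µM, the GSK3 inhibitors BIO at 1 µM and CHIR99021 at 3 µM, and 1 µL of DMSO, the vehicle of those 3 compounds. All 6 cultures shared 1 line, were adapted to gelatin without feeder cells, and were kept in serum replacement medium with 1000 U/ml of LIF, a cytokine that holds mouse embryonic stem cells undifferentiated. With 1 library per group no spread between cultures can be estimated, so no p-value is given. Every interval below is a 95% exact binomial (Clopper-Pearson) interval on read counts and covers counting error only. Copies of 1 molecule made by PCR were not told apart, so the intervals can be too narrow even for counting error.

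Vitamin C, or ascorbic acid, is a cofactor of iron- and oxoglutarate-dependent dioxygenases, among them the TET enzymes that oxidise methylated DNA and the JmjC enzymes that demethylate histones. In mouse cell reprogramming it is known for its effect on the imprinted Dlk1-Dio3 domain, which holds one of the largest microRNA clusters of the genome. A microRNA hairpin gives a 5p and a 3p arm of about the same length, and pairing with target mRNAs rests mainly on the seed near the 5′ end. The 3′ end is more variable, since it can be trimmed, or extended by untemplated bases that terminal transferases add.

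The vitamin C library held 20600614 tags of 18 to 44 bases and the ddH2O library 20362550. Tags matching a microRNA arm numbered 1890061 in the vitamin C library (9.17% of all tags) and 1748590 in the ddH2O library (8.59%). Levels are given as CPM, counts scaled to 1e+06 microRNA tags per library. A count of 3, taken as the lowest that can be told from 0, was 1.59 CPM in the vitamin C library and 1.72 CPM in the ddH2O library. Tags of 18 and 19 bases made up 18.7% of all tags in the vitamin C library and 11.0% in the ddH2O library, and 4.73% and 3.39% of their microRNA tags. The stem cell marker cluster miR-290-295 summed to 280579 CPM in the vitamin C library and 272761 CPM in the ddH2O library. Markers of other lineages were present at lower summed levels, led by miR-128-3p and miR-124a-3p among neural markers and by miR-21a-5p among fibroblast and mesenchymal markers. Of the liver and pancreas markers, miR-216a-5p, miR-216b-3p, miR-217-3p and miR-122-3p had 0 counts in both libraries. MiR-216b-5p and miR-217-5p had 3 counts or fewer in both. MiR-122-5p had 30.7 CPM with vitamin C and 33.2 CPM with ddH2O, and miR-375-3p had 56.1 and 105 CPM in that order.

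Most microRNAs lay at close to the same level with and without vitamin C, and those that differed were mostly higher with it. Of 1264 arms with any tag in the 6 libraries, 485 reached 10 CPM in either library of the pair and were compared. An arm was called when its levels differed at least 2-fold and the interval of the ratio left out 1. By this rule 29 arms (5.98%) were higher with vitamin C and 7 (1.44%) lower, or 7.42% in both directions. The median log2 ratio of vitamin C over ddH2O, computed with 0.5 count added to each side, was -0.01 over the 485 arms. Among the 259 arms at 100 CPM or more in either library, 9 were called higher (3.47%) and 0 lower, and 88.8% lay within 1.5-fold. The same rule called 35 arms (7.25%) between the 2 vehicle libraries, ddH2O over DMSO, with 4.97% higher and 2.28% lower in ddH2O. At 100 CPM or more it called 4.72% of arms there, 3.15% higher and 1.57% lower. At 100 CPM or more the standard deviation of the log2 ratio was 0.46 for vitamin C over ddH2O and 0.47 for ddH2O over DMSO on the same arms. The libraries given the 2 vehicles thus lay as far apart as the vitamin C library lay from its own vehicle. In bulk RNA, fewer cells that express a microRNA and less of it per cell cannot be told apart.

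**Figure D1:**
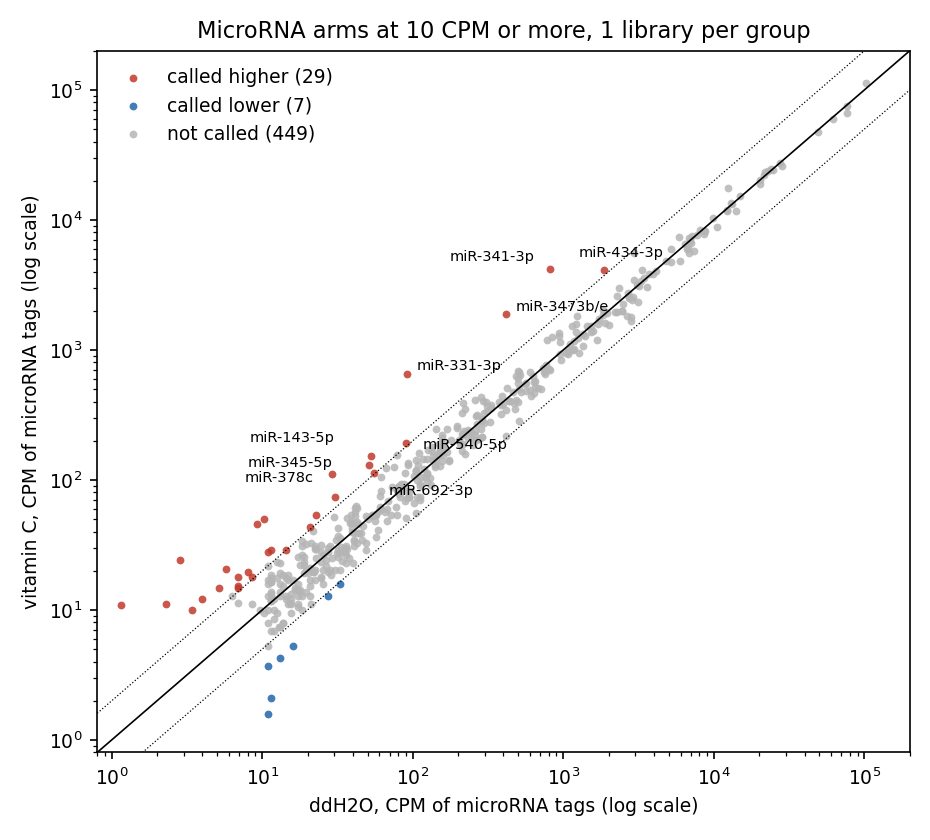
Level of each of the 485 arms in the vitamin C library (vertical axis, CPM of microRNA tags, log scale) against the ddH2O library (horizontal axis, same unit). The solid line marks equal levels and the dotted lines a 2-fold difference; the 9 named arms are those called at 100 CPM or more, all above the upper dotted line.

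Among the 9 arms called higher at 100 CPM or more, the 6 shown here have 6 different seeds. Their mature sequences, from RefSeq (GRCm38.p6, which had a mature sequence for 385 of the 485 arms), are printed to tell these seeds apart, with bases 2 to 8, the seed, in capitals.
miR-331-3p: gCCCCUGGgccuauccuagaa
miR-341-3p: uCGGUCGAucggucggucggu
miR-434-3p: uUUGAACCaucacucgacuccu
miR-345-5p: gCUGACCCcuaguccagugcuu
miR-540-5p: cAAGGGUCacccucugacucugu
miR-3473b: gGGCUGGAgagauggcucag
miR-3473e: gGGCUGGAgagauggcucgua
The last 2 lines are 1 arm here, since miR-3473b and miR-3473e share their seed and their most abundant tag. Tags of miR-345-5p did not all carry the printed seed. Its leading form from the printed start had 103 counts with vitamin C and 25 with ddH2O. A form starting 1 base upstream, which shifts the seed, had 91 and 25 in that order. With the counts of all arms of a seed summed, an arm counted whole whatever the start of its tags, 23 seeds were higher and 7 lower. Only 1 of those 30 seeds, GCAUAUA of miR-669h-3p, miR-669i-3p and miR-669k-3p, held more than 1 compared arm.

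MiR-331-3p had the largest ratio at 100 CPM or more. It lies on the minus strand at chr10:93963783-93963803 (GRCm38), within an exon of Vezt, which encodes the adherens junction protein vezatin. Its level was 652 CPM with vitamin C, 53.5 with retinoic acid, 40.0 with BIO, 228 with CHIR99021, 60.3 with DMSO and 90.9 with ddH2O. The vitamin C library was the highest of the 6, and CHIR99021 was second. From 1232 counts with vitamin C and 159 with ddH2O, the ratio was 7.17-fold (6.07 to 8.51). With untemplated 3′ ends counted too, its log2 ratio was 2.02 in place of 2.84, close to the 2.01 of miR-3473b/e under the same setting. The 5p arm of the same hairpin had 30.2 CPM with vitamin C and 27.5 CPM with ddH2O.

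The Dlk1-Dio3 domain on chromosome 12 is imprinted, with genes expressed from the maternal or from the paternal chromosome. Of its 81 compared arms, 3 were called higher and 0 lower, which is not above the 5.98% called higher over all arms. MiR-341-3p (chr12:109611556-109611576, plus strand) lies in an intron of Rian, a maternally expressed noncoding RNA. Its level was 4192 CPM with vitamin C, 1296 with retinoic acid, 755 with BIO, 1754 with CHIR99021, 1456 with DMSO and 814 with ddH2O, a ratio of 5.15-fold (4.87 to 5.45). This call was lost when tags with untemplated 3′ ends were counted too, with a log2 ratio of 0.51 in place of 2.36. MiR-434-3p (chr12:109594565-109594586, plus strand) lies antisense to an exon of Rtl1, a paternally expressed retrotransposon-derived gene. It had 4118 CPM with vitamin C, 4704 with retinoic acid, 1036 with BIO, 999 with CHIR99021, 1659 with DMSO and 1862 with ddH2O. Vitamin C and retinoic acid were the 2 high libraries, and the ratio over ddH2O was 2.21-fold (2.12 to 2.31). MiR-540-5p (chr12:109586085-109586107) had 193.6 CPM with vitamin C and 90.4 CPM with ddH2O, or 2.14-fold (1.77 to 2.60). Against its 112 CPM in the DMSO library it was not called, at a log2 ratio of 0.79. The median log2 ratio of the 81 arms was 0.01, and their summed level was 80610 CPM with vitamin C and 72047 CPM with ddH2O. The 58 compared arms beyond Rian had 0 called, and their sum was 52757 CPM with vitamin C and 49641 CPM with ddH2O.

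MiR-345-5p, from an intron of the mitochondrial carrier gene Slc25a47 on the same chromosome and outside the domain, had 131 CPM with vitamin C, 141.3 with retinoic acid and 50.9 with ddH2O. The other 3 libraries held 39.9 to 52.4 CPM. Its ratio over ddH2O was 2.58-fold (2.02 to 3.32).

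The remaining 4 called arms at this level shared tags with other loci or were mostly very short. MiR-3473b/e, a sequence that recurs in the genome, had 1876 CPM with vitamin C and 413 CPM with ddH2O, or 4.54-fold (4.19 to 4.93), and 92.9% of its tags with vitamin C and 93.6% with ddH2O were under 20 bases. MiR-378c, a close copy of the metabolic regulator miR-378a, had 112 CPM with vitamin C and 29.1 CPM with ddH2O, or 3.84-fold (2.81 to 5.30), and had a larger log2 ratio without a call when tags of several arms were left out, 2.70 in place of 1.93. MiR-378a-3p itself had 3544 CPM with vitamin C and 3447 CPM with ddH2O, a ratio of 1.03. MiR-143-5p, from a smooth muscle and mesenchymal microRNA, had 151 CPM with vitamin C and 52.6 CPM with ddH2O, or 2.88-fold (2.27 to 3.68). Of its tags 84.3% with vitamin C and 88.0% with ddH2O were under 20 bases, although it was also called from longer tags alone. MiR-692-3p, which has 2 hairpins of which 1 lies in a ferritin light chain pseudogene, had 114 CPM with vitamin C and 54.9 CPM with ddH2O. Its ratio was 2.07-fold (1.62 to 2.66), and on tags of 20 to 26 bases alone its log2 ratio lay just under the 2-fold limit, at 0.97 in place of 1.05.

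**Figure D2:**
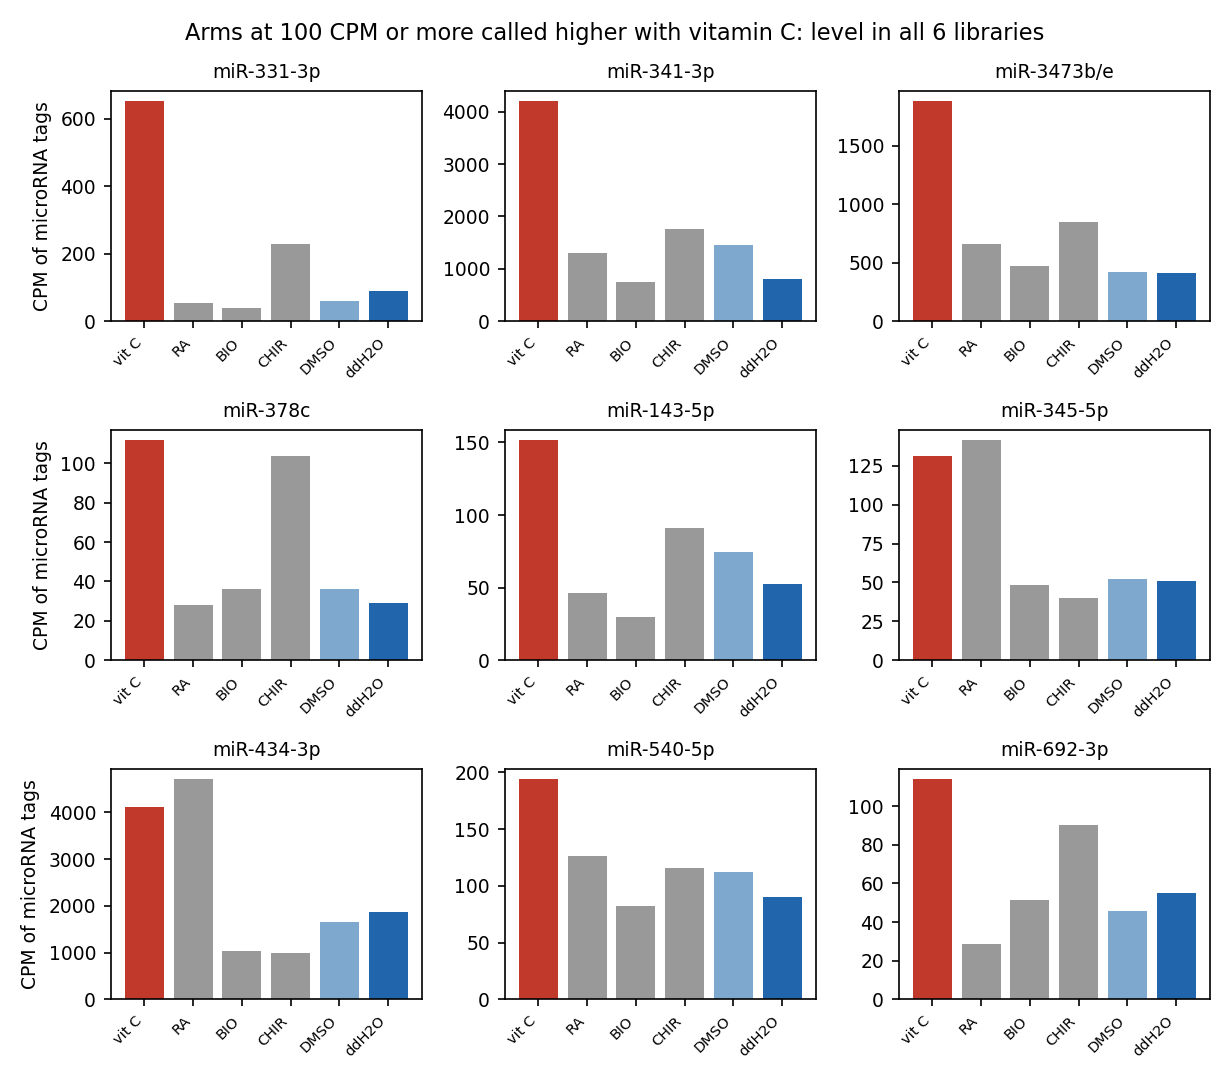
Level of the 9 arms called higher at 100 CPM or more in all 6 libraries (bars, CPM of microRNA tags, 1 library per bar; vit C is vitamin C, RA retinoic acid, CHIR is CHIR99021). The vitamin C bar is the tallest in 7 of the 9 panels; for miR-345-5p and miR-434-3p retinoic acid is taller.

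Across all 29 arms called higher, vitamin C was the highest of the 6 libraries in 20, while it was highest in 13.0% of all 485 arms. The rule that chose the 29 arms used the vitamin C level, so this count is a description. Of the 29, 20 were also called over DMSO, and of the 9 at 100 CPM or more, 8 were. Both comparisons use the same vitamin C library. Against DMSO, vitamin C was called higher in 42 arms (8.70%) and lower in 9 (1.86%), 10.6% in all. At 100 CPM or more it was called higher in 15 of 257 arms (5.84%) and lower in 3 (1.17%). Of the 29, 20 remained called with tags of 20 to 26 bases only, and 20 with untemplated ends counted.

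The 20 arms called higher below 100 CPM had 10.1 to 74.1 CPM with vitamin C and 1.14 to 30.3 CPM with ddH2O. The highest of them, miR-129-1-3p, named after its values were seen like the others in this paragraph, had 74.1 CPM with vitamin C, 12.6 to 29.9 CPM in the 4 libraries outside the pair and 30.3 CPM with ddH2O. Its ratio was 2.44-fold (1.77 to 3.42). MiR-15a-3p, the passenger arm of a tumour suppressor microRNA in the Dleu2 intron, had 24.3 CPM with vitamin C and 2.86 CPM with ddH2O, from 46 and 5 counts. MiR-21a-3p had 28.0 CPM with vitamin C and 10.9 CPM with ddH2O, while miR-21a-5p, its abundant partner arm, had 5712 and 7349 CPM in the same order. MiR-182-3p had 49.7 CPM with vitamin C and 10.3 CPM with ddH2O, almost all from tags under 20 bases, and its log2 ratio turned to -1.68 on tags of 20 to 26 bases. The 7 arms called lower were miR-486-3p, miR-455-5p, miR-297b-5p, miR-6955-5p, miR-132-3p, miR-186-3p and miR-7083-5p, at 1.59 to 15.9 CPM with vitamin C and 10.9 to 32.6 CPM with ddH2O. Vitamin C was the lowest of the 6 libraries in 4 of them, against 6.39% of all 485 arms. The rule that chose these 7 arms used the vitamin C level, so this count too is a description. Only miR-297b-5p among these 7 was also called lower over DMSO.

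At 100 CPM or more, miR-374b-5p, miR-375-3p and miR-499-5p were among those nearest to a call on the lower side, and miR-374b-5p was named after its values were seen. MiR-374b-5p had 218.8 CPM with vitamin C and 414 CPM with ddH2O, a log2 ratio of -0.92, and 214.8 to 478 CPM in the other 4 libraries. MiR-375-3p, a marker of endocrine pancreas, had 56.1 CPM with vitamin C and 105 CPM with ddH2O (log2 ratio -0.91). MiR-499-5p, from a myosin heavy chain intron, had 283 CPM with vitamin C and 510 CPM with ddH2O (log2 ratio -0.85). Over DMSO the log2 ratio was -0.08 for miR-374b-5p and 0.22 for miR-375-3p. The muscle and heart list that holds miR-499-5p had a median log2 ratio of 0.28 over DMSO.

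The abundant microRNAs of these cells were close to equal. MiR-293-3p, the most abundant arm in both libraries, had 112848 CPM with vitamin C and 101958 CPM with ddH2O, a ratio of 1.11 (1.10 to 1.11). MiR-140-3p had 75698 CPM with vitamin C and 76089 CPM with ddH2O, and miR-103-3p had 59968 CPM with vitamin C and 61515 CPM with ddH2O. MiR-290a-5p was at 66731 CPM with vitamin C and 76979 CPM with ddH2O, a ratio of 0.867 (0.860 to 0.874). Of the 10 most abundant arms, this one lay farthest from 1. The intervals of these arms are narrow because their counts are large, and they hold no difference between cultures.

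The 31 lists of microRNA families, clusters and lineage markers are given by the number of compared arms called and by the median log2 ratio, beside -0.01 for all arms, of which 5.98% were called higher and 1.44% lower. The stem cell cluster miR-290-295, which sustains the cell cycle and self-renewal of mouse embryonic stem cells, had 0 of 14 arms called and a median of 0.07. Within it, miR-291a-5p had 17471 CPM with vitamin C and 12475 CPM with ddH2O, a ratio of 1.40 (1.38 to 1.42). The miR-302 cluster, typical of primed pluripotent cells, was low, at 81.5 CPM summed with vitamin C and 95.5 CPM with ddH2O. The proliferation-linked miR-17-92 cluster and its paralogs had 1 of 24 arms called higher, miR-18b-3p, and a median of 0.03. The let-7 family, which promotes differentiation, had 0 of 9 called, a median of -0.01, and together it held 80585 CPM with vitamin C and 82116 CPM with ddH2O.

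MicroRNAs reported to target Tet mRNAs, whose products use vitamin C as a cofactor, had 0 of 18 arms called and a median of -0.02. With all tags as the total, which moves every ratio up by 0.10 on the log2 scale, the medians of this list and of let-7 lie above 0, at 0.07 and 0.09. The miR-29 family, which acts on DNA methyltransferases and collagens, had 0 of 3 called and a median of -0.24. Its most abundant arm, miR-29a-3p, had 3408 CPM with vitamin C and 3276 CPM with ddH2O, while miR-29b-3p and miR-29c-3p had log2 ratios of -0.24 and -0.25. The family of miR-148a and miR-152-3p had 0 of 4 called and a median of -0.19, with 2 arms above 0 and 2 below. MiR-152-3p had 1193 CPM with vitamin C and 1677 CPM with ddH2O (ratio 0.711), and miR-148b-3p 676 and 598 CPM in that order. The hypoxia-induced miR-210-3p had 1812 CPM with vitamin C and 2634 CPM with ddH2O, a ratio of 0.688 (0.658 to 0.719), and 736 to 2230 CPM in the other 4 libraries. It was above its DMSO level of 895 CPM in both.

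The Sfmbt2 intron holds a rodent cluster active in early embryo and placenta. Of its 33 compared arms, set beside 5.98% called higher and 1.44% lower over all arms, 4 were called higher (miR-669h-3p, miR-669k-3p, miR-669i-3p and miR-467e-3p) and 1 lower (miR-297b-5p), with a median of -0.11 that stayed below 0 at -0.02 when all tags served as the total. The called arms were at 4.23 to 45.8 CPM with vitamin C and 5.15 to 20.7 CPM with ddH2O. The most abundant arm, miR-669c-5p, had 11720 CPM with vitamin C and 14044 CPM with ddH2O, a ratio of 0.835.

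Several lists of lineage and tissue markers had negative medians against ddH2O and positive ones against DMSO. The 3 compared muscle and heart arms, of which 0 were called, had a median log2 ratio of -0.75 over ddH2O and 0.28 over DMSO. Its leading arm, miR-1a-3p, a muscle microRNA, had 1676 CPM with vitamin C, 6259 with retinoic acid, 1161 with BIO, 580 with CHIR99021, 1376 with DMSO and 2818 with ddH2O. Neural markers had 0 of 13 called higher, 1 lower (miR-132-3p) and medians of -0.41 over ddH2O and 0.12 over DMSO. The X-linked germline cluster had 0 of 6 called and medians of -0.61 and 0.36 over the same 2 vehicles. The epithelial miR-200 family had 0 of 6 called and medians of -0.40 and 0.16. The Hox cluster arms had 0 of 3 called and medians of -0.35 and 0.26, while the Drosha-independent arms had 0 of 5 called and medians of 0.37 and -0.60. The fibroblast and mesenchymal markers had 2 of 10 called higher, miR-143-5p and miR-21a-3p, and a median of -0.09, which was 0.00 with all tags as the total. The vitamin C library is shared by each such pair, so the 2 ratios of an arm differ by the distance between the 2 vehicle libraries. The 2 medians of a list need not differ by the median of that distance. In the lists not described here, miR-182-3p and miR-15a-3p were the only arms called, and their medians lay between -0.51 and 0.22. Whether ddH2O or DMSO is the better control for these lists was not tested.

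**Figure D3:**
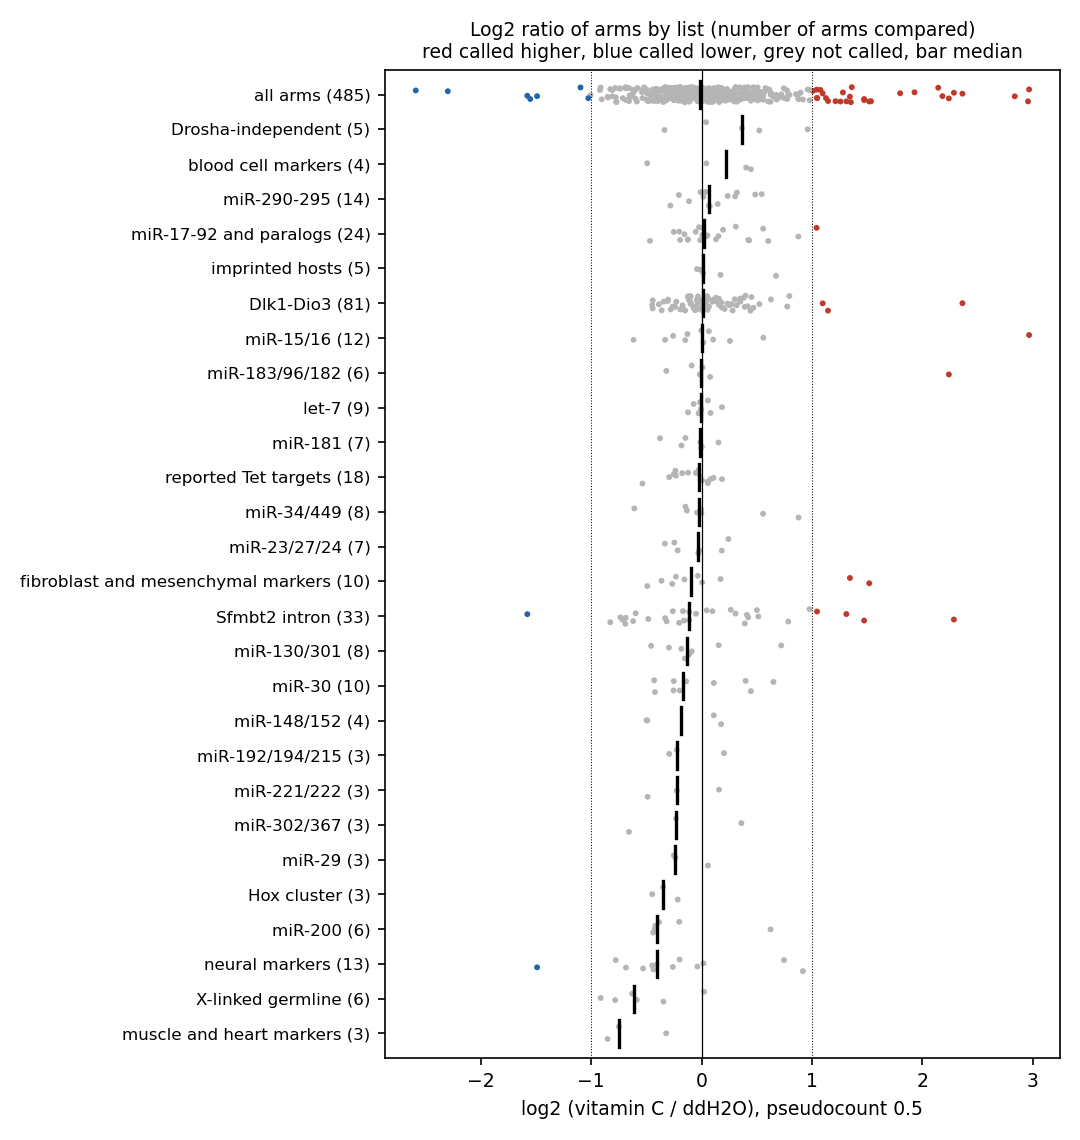
Log2 ratio of vitamin C over ddH2O (horizontal axis, 0.5 count added to each side) for the arms of each list with 3 or more compared arms; each point is 1 arm, the bar is the list's median, and the number of arms stands in brackets. List medians run between -0.75 and 0.37 around -0.01 for all arms, and called arms (red higher, blue lower) are a minority of every list.

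The 2 arms of a hairpin come from 1 precursor. Among 250 arms of hairpins with both arms compared, 1 arm of a hairpin was called in 15 hairpins, and both were called in 0. Only 7.42% of all arms were called, so nothing is read from this count of 0. The second arm had the same sign in 6 of the 15. For Mir434 the 5p arm had 39.1 CPM with vitamin C and 44.04 CPM with ddH2O beside the called 3p arm. For Mir345 the 3p arm had 687 CPM with vitamin C and 496 CPM with ddH2O beside the called 5p arm, and for Mir143 the 3p arm had 940 and 1047 CPM in that order.

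The tags of 3 arms show where the difference sat. Below, a tag in lower case matches the hairpin over its whole length, and capitals mark untemplated 3′ bases that the hairpin does not hold.
miR-331-3p, 21 bases: gcccctgggcctatcctagaa
miR-331-3p, with T: gcccctgggcctatcctagaaT
miR-331-3p, with A: gcccctgggcctatcctagaaA
miR-341-3p, 21 bases: tcggtcgatcggtcggtcggt
miR-341-3p, with T: tcggtcgatcggtcggtcggtT
miR-341-3p, with A: tcggtcgatcggtcggtcggtA
miR-124a-3p, 22 bases: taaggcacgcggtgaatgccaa
miR-124a-3p, 21 bases: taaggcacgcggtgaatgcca
miR-124a-3p, with T: taaggcacgcggtgaatgccaT
The templated 21-base tag of miR-341-3p had 5914 counts with vitamin C and 580 with ddH2O, which is 3129 CPM against 332 CPM, or 9.43-fold (8.66 to 10.3). The tag with 1 added T had 11056 counts with vitamin C and 10106 with ddH2O, or 5850 and 5780 CPM, a ratio of 1.01 (0.985 to 1.04). The tag with 1 added A stood at 1200 CPM with vitamin C and 1073 CPM with ddH2O. The difference in miR-341-3p was thus in its templated tags, and these tailed forms were close to equal.

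MiR-331-3p showed this split in part. Its templated 21-base tag had 578 CPM with vitamin C and 80.1 CPM with ddH2O (7.22-fold, 6.05 to 8.68), the tag with T 63.5 and 41.7 CPM, and the tag with A 40.2 and 39.5 CPM in that order. Tails on the 20-base tag went both ways. With an added C the ratio was 7.80-fold (3.56 to 20.2), with T 4.63-fold (1.89 to 13.6) and with CA 1.27-fold (0.466 to 3.64). These rest on 7, 6 and 8 counts with ddH2O. MiR-124a-3p, a neuronal microRNA, was not called as an arm, at 5553 CPM with vitamin C and 2939 CPM with ddH2O (1.89-fold, 1.83 to 1.95). Its 21-base tag, 1 base shorter than the main one, had the largest ratio of all single tags at 100 CPM or more. This tag had 889 CPM with vitamin C, 13.7 with retinoic acid, 62.9 with BIO, 427 with CHIR99021, 77.0 with DMSO and 40.0 with ddH2O, or 22.2-fold over ddH2O (17.5 to 28.6). Vitamin C and CHIR99021 were the 2 high libraries. The 22-base main tag was at 3876 CPM with vitamin C and 2548 CPM with ddH2O, or 1.52-fold (1.47 to 1.58).

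The share of an arm's tags that carried an untemplated end was lower with vitamin C in a small number of arms. Over the whole library, 11.6% of microRNA tags with vitamin C and 12.3% with ddH2O were tailed, and the other 4 libraries held 10.8% to 15.7%. Of 305 arms with 100 or more tags in each library, 10 (3.28%) had a tailed share at least 5 percentage points lower with vitamin C with intervals apart, and 1 (0.328%) a share at least 5 points higher. MiR-331-3p was tailed in 21.5% of tags with vitamin C (19.5% to 23.7%), 78.7% with retinoic acid, 63.3% with BIO, 22.4% with CHIR99021, 41.2% with DMSO and 55.8% with ddH2O (50.5% to 61.0%). MiR-341-3p was tailed in 66.2% with vitamin C (65.5% to 66.8%), 85.5% with retinoic acid, 86.7% with BIO, 66.0% with CHIR99021, 78.2% with DMSO and 90.7% with ddH2O (90.3% to 91.2%). In both arms vitamin C and CHIR99021 were the 2 low libraries. MiR-124a-3p was tailed in 37.2% with vitamin C and 50.7% with ddH2O, miR-345-3p in 66.0% and 75.4%, and miR-345-5p in 8.82% and 20.5%. The one arm on the other side, miR-6538, was tailed in 93.02% with vitamin C and 80.5% with ddH2O. Its tails were set against the hairpin alone and may be templated at another locus. Among the 9 arms called higher that had enough tags, 4 were among the 10 and the median difference was -10.1 points. Among the arms not called, 6 were, and the median was -0.61 points. Templated tags enter both the call and the share, so this is a description and not support for the calls.

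**Figure D4:**
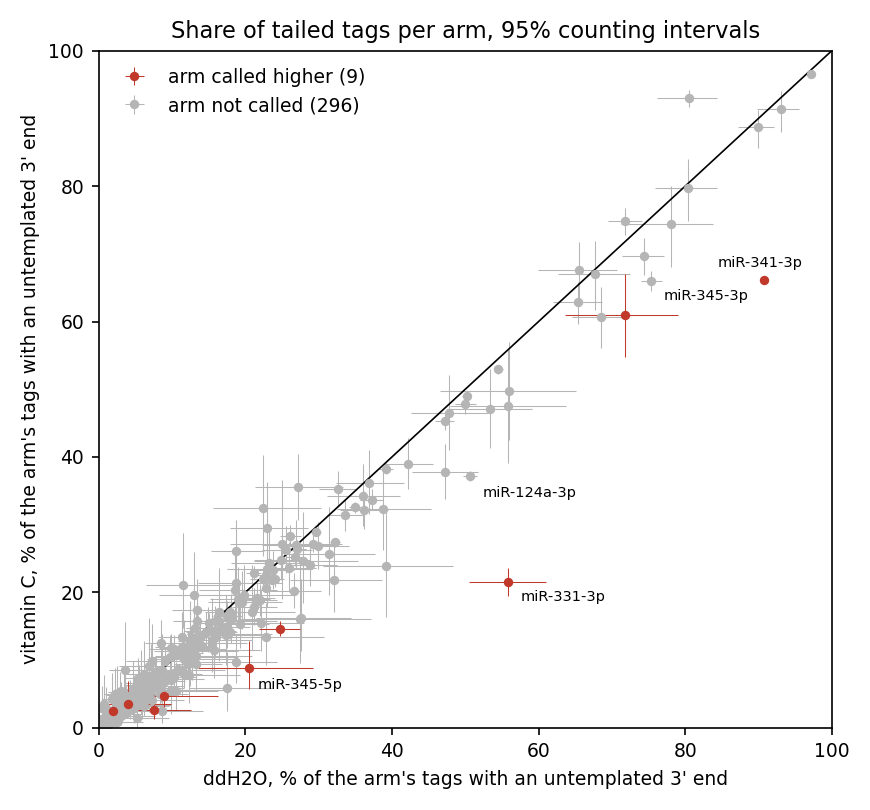
Share of each arm's tags with an untemplated 3′ end in the vitamin C library (vertical axis, %) against the ddH2O library (horizontal axis, %), for 305 arms; bars are 95% counting intervals and the line marks equal shares. MiR-341-3p, miR-331-3p and miR-124a-3p lie farthest below the line among the named arms.

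Counted as single tags, the difference ran with the 3′ end. Of 2706 tags at 10 CPM or more in either library, 154 (5.69%) were called higher with vitamin C and 81 (2.99%) lower. Over DMSO the shares were 7.47% and 3.11%. Tags whose templated 3′ end was shorter than that of the arm's main tag were higher in 74 and lower in 7 of 691, with a median log2 ratio of 0.19. Tailed tags were higher in 34 and lower in 57 of 1105, with a median of -0.16. For tags 4 bases short of the main end the median was 0.47 (quartiles 0.01 and 0.80, 52 tags), and for tags ending at the main end it was -0.04 (560 tags). Over DMSO the medians of these same tags were -0.09 and 0.11, and for ddH2O over DMSO they were -0.69 and 0.15. These 3 comparisons share libraries in pairs. For vitamin C over ddH2O the medians fell as tags grew longer. Over DMSO the slope was reversed and shallower, from -0.09 at 4 bases short to 0.21 at 3 bases beyond the main end (29 tags). DdH2O over DMSO sloped the same way as vitamin C over DMSO and more steeply, from -0.69 to 0.37. Tags of 18 and 19 bases were 18.7% of all tags with vitamin C, 10.9% with DMSO and 11.0% with ddH2O. Among microRNA tags alone they were 4.73% with vitamin C, 4.95% with DMSO and 3.39% with ddH2O, so ddH2O was the lowest of these. The part of RNA quality or size selection in these slopes was not tested.

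**Figure D5:**
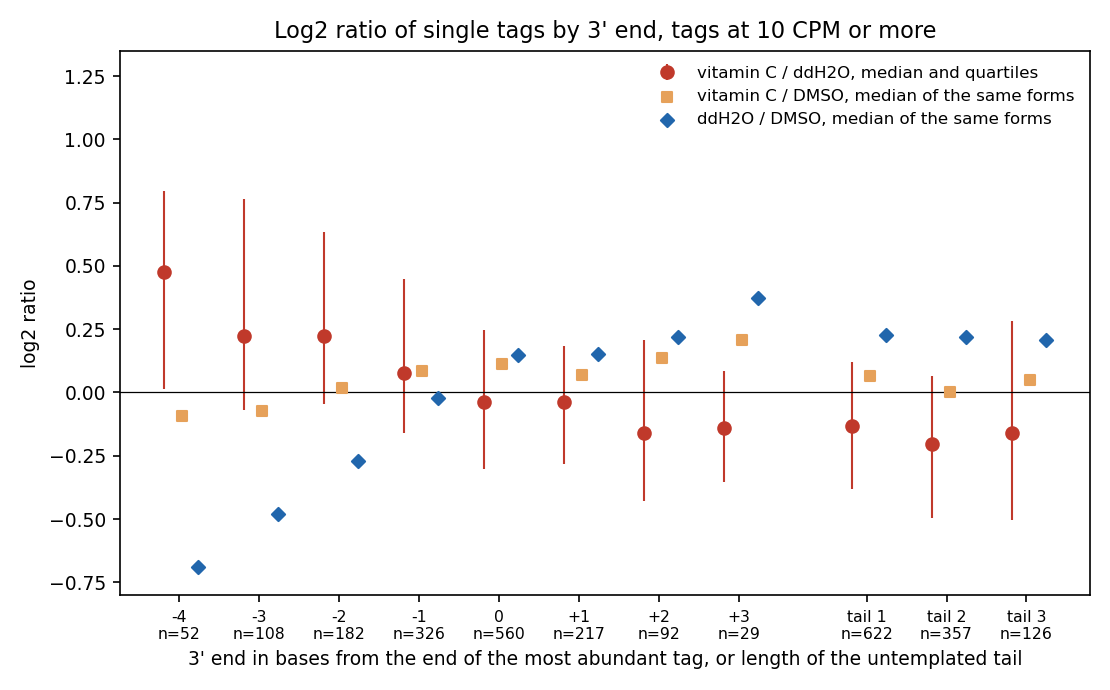
Median log2 ratio of single tags (vertical axis) by 3′ end (horizontal axis: bases from the end of the arm's most abundant tag, or length of the untemplated tail; n is the number of tags). Red circles with quartile bars are vitamin C over ddH2O, orange squares vitamin C over DMSO and blue diamonds ddH2O over DMSO on the same tags; at 4 bases short they lie at 0.47, -0.09 and -0.69.

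At 100 CPM or more, 23 of 754 single tags (3.05%) were called higher and 3 (0.398%) lower. They held shortened, full-length and tailed tags. A tag of miR-6538 with 2 G beyond its hairpin match had 666 CPM with vitamin C and 86.4 CPM with ddH2O (7.71-fold). One of miR-6240 with 1 G beyond its match had 3860 CPM with vitamin C and 1412 CPM with ddH2O (2.73-fold). The genome was not searched, so these G may be templated at another locus, and such tags may not come from a microRNA. The main tag of miR-434-3p, at its full 22 bases, had 1930 CPM with vitamin C and 809 CPM with ddH2O. Others were short forms of arms that were not called. The 20-base tag of miR-140-3p had 1738 CPM with vitamin C and 542 CPM with ddH2O. The 20-base tag of miR-291a-5p, of the stem cell cluster, had 796 CPM with vitamin C, 274 with retinoic acid, 277 with BIO, 546 with CHIR99021, 535 with DMSO and 362 with ddH2O, or 2.20-fold over ddH2O (2.00 to 2.42). Its 21-base tag had 1433 CPM with vitamin C and 691 CPM with ddH2O. In the DMSO library the 21-base tag had 1085 CPM. The 3 lower tags were a 25-base tag of miR-30d-5p with an added T (48.1 CPM with vitamin C and 100.7 CPM with ddH2O), a 23-base tag of miR-674-5p with an added T (199.99 and 456 CPM in that order) and a 22-base tag of miR-6240-3p (48.1 and 108 CPM). The tags in this paragraph were named after their values were seen.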

How the data were processed

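Small RNA was sequenced from 6 J1 cultures, 1 library per treatment, from TRIzol total RNA with an Illumina TruSeq kit, per the labels' protocols. The authors deposited, for each library, distinct tag sequences with a whole-number read count. The submitters' processing notes name the genome build mm9, and the aligner and adapter trimming are not given in the sources used here. Tags of 18 to 26 bases were matched exactly to 1174 mouse hairpins with a Mir symbol (GENCODE M21, GRCm38). Tags that also matched ribosomal, mitochondrial transfer, small nuclear or small nucleolar RNA were left out. Tag starts within 2 bases of an arm's most abundant tag were summed, and tags of several arms were split evenly. An untemplated end is up to 3 bases beyond the hairpin match, with no search of the genome. A call needed 10 CPM in the higher library, a 2-fold difference and a 95% exact binomial interval that left out 1. Log2 ratios had 0.5 count added. With 1 library per group there was no test across replicates and no biological error. Scaling was also done by TMM (edgeR 4.0.16) and by median of ratios (DESeq2 1.42.0), and neither tool was used for a test. Named arms were, at 100 CPM or more, the 12 highest and 12 lowest called ratios and the 10 most abundant arms, and for every list its 4 leading members by level, if at 10 CPM or more. Other arms were named after their values were seen. The arms, lists and rules were chosen with earlier results of these data known. The counting and the calls were tested on simulated data.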

Additional observations from a re-analysis of the deposited data

How the results depend on the processing

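Counts given for the comparison were each set against their values under other settings. In 41 of these pairings of a count with a setting the count stayed within 1.5 times, and in 9 it did not. The 9 lie in the counts of arms and list members called higher or lower, and each of these counts moved under some setting. Arms called higher numbered 29, and 9 with a minimum of 100 CPM. Arms called lower numbered 7, against 12 with no minimum and 0 with a minimum of 100 CPM. List members called higher numbered 12, against 4 with a minimum of 100 CPM and 19 with DMSO as the control. List members called lower numbered 2, against 5 with no minimum, 0 with a minimum of 100 CPM, 4 from the most abundant tag alone and 6 with DMSO as the control. Single tags called higher numbered 154, and 202 with DMSO as the control, an alternative chosen after seeing the data. Of the 36 called arms, 10 were called under every setting other than the level minimums and 26 lost their call under at least one of these, most of them below 100 CPM. The sign reversed in 4, all below 100 CPM: on tags of 20 to 26 bases the log2 ratio was -1.68 for miR-182-3p, -0.58 for miR-5099-3p and -1.31 for miR-703-5p, and over DMSO it was -0.16 for miR-3078-5p; the cause was not tested. Among the 9 called at 100 CPM or more, the 4 lost calls are given above, and miR-540-5p was also not called from its most abundant tag alone (log2 ratio 0.35) and miR-692-3p was at 0.79 there. With tails of 1 base only, the tailed share of miR-331-3p was 30.5 points lower with vitamin C, in place of 34.3. No paired analysis was possible because each group holds 1 library. Arms near 10 CPM rest on about 20 counts, so small differences among them were not detectable at this depth.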
